A study of Rattus norvegicus with 6 samples.

Results

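The 300 circular RNA (circRNA) probes with the highest mean signal on 6 arrays of rat vascular smooth muscle cells were taken out of 14145 circRNA probes. The choice used the mean of the authors' deposited log2 values over all 6 arrays, so it used no contrast between control and treated cells. The brightness of a probe depends on its sequence and on labelling as well as on the amount of RNA, so these are called the 300 brightest probes here, and no probe's level is read as an abundance against another's. The files carry only a probe ID for each circRNA and pair none of the 14145 with a host gene, so members are described by ID, rank and signal.

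A circRNA forms when a downstream splice donor is joined back to an upstream acceptor, which closes an exon or several exons into a ring without free ends. Without ends the ring escapes exonucleases, and circRNAs therefore tend to be long-lived and to build up in cells that divide slowly. Vascular smooth muscle cells contract the vessel wall, and they switch between a contractile state and one that divides, migrates and lays down matrix. Platelet-derived growth factor BB (PDGF-BB), a dimer that signals through PDGF receptor beta, is a standard inducer of that switch in culture.

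There were 3 arrays of control cells, whose labels name no treatment, and 3 of cells exposed for 24 h to PDGF-BB at 20 ng/ml. Both groups were rat vascular smooth muscle cells in DMEM with 10% fetal bovine serum, held at 37 °C in 5% CO2, so the controls were also grown in serum. The labels give no strain, age, passage or vessel, and do not say whether the samples of a group came from separate cultures. The p-values below therefore cover the spread between these arrays and no more, and that spread may be technical. Only 39 of the 82 probes for linear transcripts could be given a gene symbol. None of 9 smooth muscle markers and none of 11 markers of fibroblasts, endothelium and macrophages was among these 39, so the labelled cell type could not be checked.

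The 75th percentile of processed signal over non-control probes, used to scale each array, was 91.8, 97.6 and 111 for the 3 controls in order and 141, 98.4 and 71.2 in PDGF-BB arrays 1, 2 and 3. All 6 arrays share 1 scan time, and the position codes put control 1 and all 3 PDGF-BB arrays in one line of the slide and controls 2 and 3 in the other. Among the 300 brightest probes, the order of control 1 was closer to that of PDGF-BB arrays 2 and 3 (Spearman rho 0.955 and 0.956 over 300 probes) than to that of controls 2 and 3 (0.871 and 0.903). Control 2 and control 3 were closest to each other (0.955), and PDGF-BB 1 was closest to control 2 (0.952). PDGF-BB arrays 2 and 3 were closest to each other (0.975). In all, 4 of 6 arrays were closest to one of their own group, and control 1 and PDGF-BB 1 were not. Results that rest on single arrays are given with and without them below.

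The mean deposited log2 value of the 300 probes ran from 10.9995 to 16.99, with a median of 12.59, where the median over all probes was 5.73 to 5.75 in single columns. In the scanner files all 300 were well above background on all 6 arrays, against 11218 of all 14145 circRNA probes, and none was saturated. The lowest processed signal of any of the 300 on any array was 606, and the highest was 142133, where the scanner's saturation value was 778316.

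The brightest probe, ASCRPR003948, held rank 1 on all 6 arrays. Its processed signal was 139406, 119230 and 125909 for the 3 controls in order and 142133, 132687 and 120384 for the 3 PDGF-BB arrays. Control and treated values overlapped. ASCRPR001748, at rank 2, read 52892, 49382 and 62224 without treatment and 78168, 89129 and 67440 with it, so before scaling between arrays all 3 treated arrays were above all 3 controls. ASCRPR013743, ASCRPR001235 and ASCRPR012907, at ranks 3 to 5, ran from 50694 to 61350 in controls and from 57676 to 88673 in PDGF-BB arrays. The order of ranks 2 to 5 was not fixed beyond the spread between arrays: each of these probes stood between rank 2 and rank 11 on every single array.

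**Figure D1:**
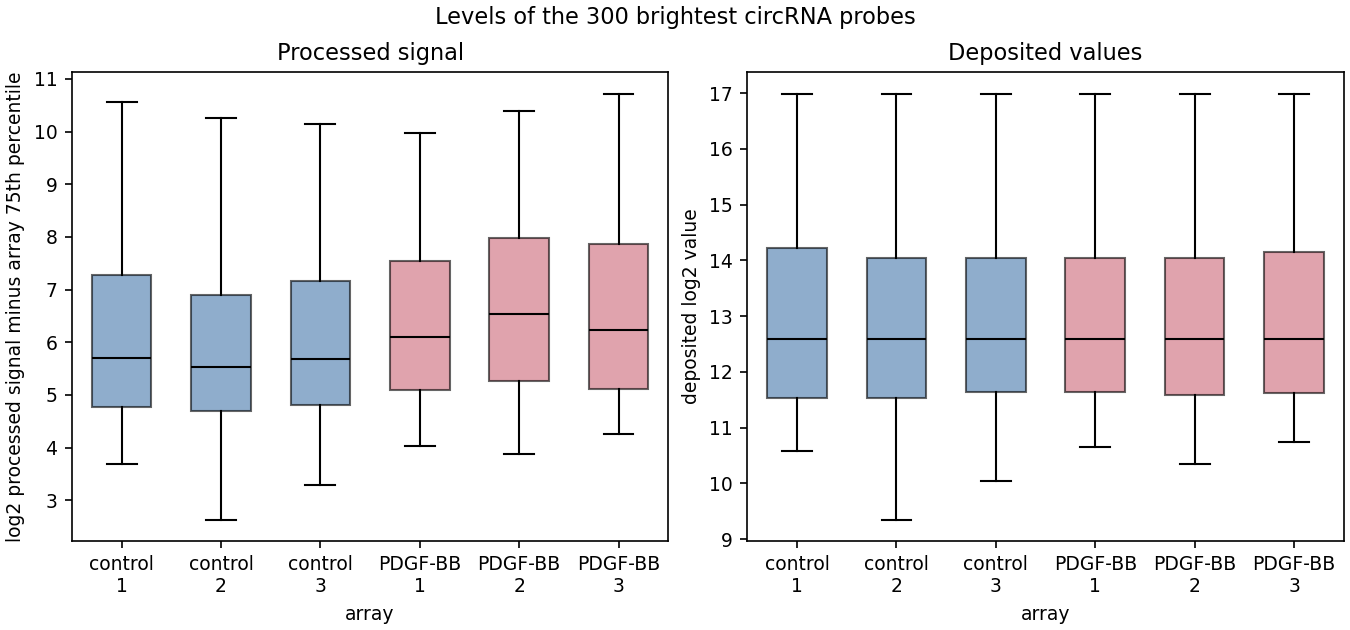
Levels of the 300 brightest circRNA probes on each array (blue, control; red, PDGF-BB), as log2 processed signal less that array's own 75th percentile over non-control probes (left, outlier-flagged spots left out) and as deposited log2 values (right). Boxes span the quartiles with the median as a line, and whiskers reach the lowest and highest probe; the medians of the 3 PDGF-BB arrays lie above those of the 3 controls on the left (6.09 to 6.54 against 5.53 to 5.70) and are equal at 12.58 on the right.

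At the other end the limit of 300 cut through closely spaced values. The last 2 probes inside were ASCRPR009505 and ASCRPR006487, the second with a mean deposited log2 value of 10.9995, and the first 2 outside were ASCRPR004393 and ASCRPR008398, at 10.98 each. Single arrays ran from 10.69 to 11.32 for ASCRPR009505 and from 10.50 to 11.64 for ASCRPR004393. On single arrays ASCRPR009505 stood between rank 251 and rank 352, and ASCRPR004393, which is no member, between rank 216 and rank 393. The edge of the list is therefore set by differences smaller than those between arrays.

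The 300 probes, a small part of the array, held most of its circRNA signal. Their share of the summed processed signal was 71.1%, 69.1% and 69.4% for the 3 controls in order and 72.2%, 77.3% and 76.6% in PDGF-BB arrays 1, 2 and 3, counted over probes with no outlier-flagged spot on any array. The height of this share follows from choosing bright probes and is a description. Control arrays averaged 69.9% ± 1.05 and treated arrays 75.4% ± 2.81 (SD, n = 3 each), a difference of 5.51 percentage points with all 3 PDGF-BB arrays above all 3 controls. PDGF-BB 1 lay only just above control 1, and the difference was 7.12 points without PDGF-BB 1, 4.54 without PDGF-BB 2 and 6.11 without control 1. In the deposited values, put back on a linear scale, the share was 69.7% ± 0.92 in control and 70.2% ± 0.53 after PDGF-BB (SD, n = 3 each), which overlapped. With 3 arrays against 3 no exact two-sided permutation test can go below p = 0.1, and none is given for a sum over probes chosen on these arrays. A share is relative to the array's own total, so it does not show whether the amount of circRNA per cell changed.

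Within the list, the difference in share lay in its middle. The 10 brightest probes held 13.9% ± 0.84 of the signal in control and 13.6% ± 1.52 in PDGF-BB arrays (SD, n = 3 each), and these values overlapped. Ranks 11 to 100 held 40.5% ± 0.91 and 45.3% ± 2.61, with control arrays at 39.7% to 41.5% and PDGF-BB arrays at 42.3% to 47.1%, which did not overlap. Ranks 101 to 300 held 15.4% ± 0.50 and 16.5% ± 1.35, which overlapped. The complement of these shares was lower in PDGF-BB arrays: ranks 3001 to 14145, which are dim probes, held 8.38% ± 0.12 of the signal in control and 6.35% ± 0.72 in PDGF-BB arrays. From 68 to 77 probes made up 50% of the signal in controls, and 76, 61 and 57 did so on the treated arrays in order.

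**Figure D2:**
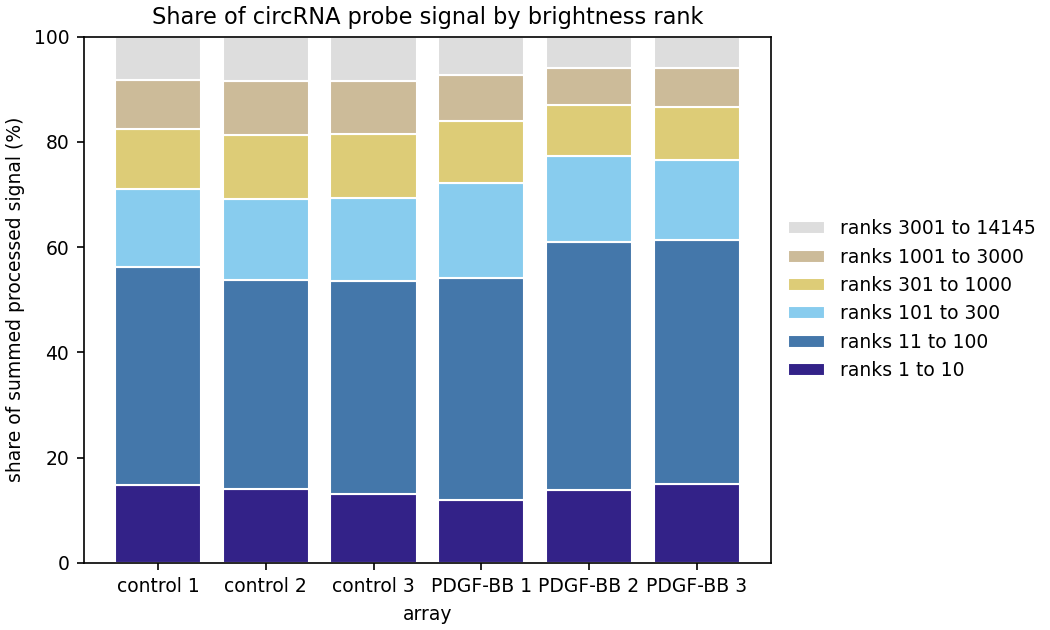
Share of the summed processed circRNA signal (percent, from 0) held by probes of successive ranks by mean deposited value, one bar per array, over probes with no outlier-flagged spot. The 3 lowest segments are the 300 brightest probes, which reach 69.1% to 71.1% in controls and 72.2% to 77.3% in PDGF-BB arrays; the segment of ranks 11 to 100 is larger in each PDGF-BB array than in any control.

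Before scaling between arrays the levels of the list overlapped between groups. The median processed signal of the 300 probes was 4705, 4540 and 5566 across the controls and 9279, 8142 and 4801 across PDGF-BB arrays 1, 2 and 3. PDGF-BB 3 thus lay among the controls, while its 75th percentile over all non-control probes, 71.2, was the lowest of the 6 arrays. On the scaled log2 signal, by contrast, the median of the 300 probes was 5.70, 5.53 and 5.68 across the controls and 6.09, 6.54 and 6.23 across the treated arrays, and the groups did not overlap.

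Membership was stable from array to array. Each array's own 300 brightest probes, ranked on the deposited values, held 279 to 281 of the members in controls and 280 to 288 in PDGF-BB arrays. Of the 300 members, 244 were among the 300 brightest on every array, 26 on 5 arrays, 12 on 4, 17 on 3 and 1 on only 2. The 6 lists together named 367 probes. When the list was chosen on 5 arrays and read on the array left out, 276 to 285 of its 300 probes were among that array's 300 brightest, and 296 to 298 were the same as in the list from all 6 arrays.

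Rank 1 was the same probe on every array, and ranks moved more toward the limit. The median range between a member's best and worst rank over the 6 arrays was 3.5 places for the first 10 members, 20 for ranks 11 to 100 and 68 for ranks 101 to 300. Of the first 10 members, 5 stayed within the first 10 on every array. The widest range was 582 places, and no member fell below rank 759 on any array. ASCRPR003766, at rank 257 by its mean, moved between rank 154 and rank 702.

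**Figure D3:**
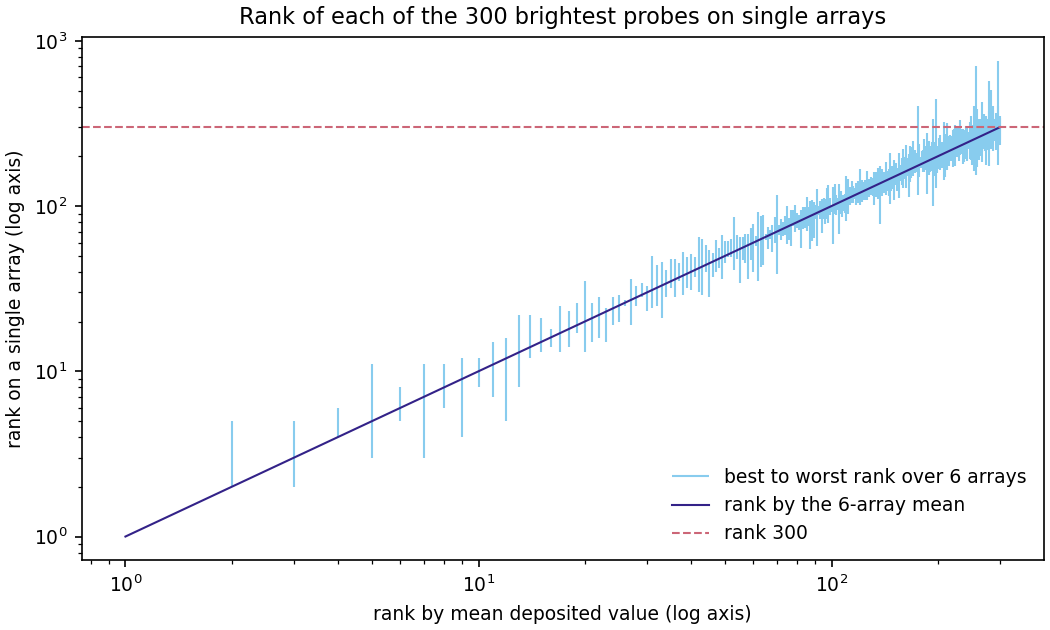
Rank of each of the 300 brightest probes on single arrays (vertical lines, best to worst over 6 arrays) against its rank by the mean deposited value, both axes logarithmic. The lines are short on this scale down to rank 100, and those that cross the dashed line at rank 300 belong to members that left the 300 brightest on at least 1 array.

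Lists from arrays of the same group shared 266 to 276 probes for the 3 control pairs and 277 to 284 for the 3 PDGF-BB pairs. Pairs with 1 array of each group shared 262 to 278, a range that covers all 3 control pairs. The 300 brightest probes by the control mean and the 300 brightest by the PDGF-BB mean had 282 in common. Over the 300 members, rank correlations ran from 0.871 to 0.955 among controls, from 0.944 to 0.975 among PDGF-BB arrays and from 0.891 to 0.956 between groups. These are correlations across probes that share arrays and are given as a description.

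The scanner's processed signal, from which background has been subtracted, gave nearly the same list. Of the 300 members, 296 were also among the 300 brightest by mean scaled log2 processed signal with flagged spots kept. The largest losses of rank were at the edge, for ASCRPR006487 (rank 300 to 330), ASCRPR009090 (297 to 324) and ASCRPR000613 (276 to 302).

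The response to PDGF-BB was tested with limma on the scaled log2 processed signal over every circRNA probe that was well above background on at least 3 arrays. Of the 300 members 295 were tested. The other 5 had an outlier flag on all 6 spots. None of the 295 passed the Benjamini-Hochberg threshold of 0.05 over the 12313 probes tested, where 2 probes did (0.0162%), and the lowest adjusted p among members was 0.142. At an unadjusted p under 0.05 there were 148 members, where 9.02% of all tested probes lay. The study's own threshold is a fold change of at least 1.5 with an unadjusted p under 0.05. It was passed by 84 members with higher and 2 with lower signal in PDGF-BB cells, where 2.48% and 2.35% of all tested probes passed in these directions. Members thus made up 27.5% of the 305 probes called higher and 0.692% of the 289 called lower.

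The median log2 fold change (PDGF-BB minus control) of the 295 members was 0.51, a 1.42-fold difference, with quartiles of 0.36 and 0.64, against a median of 0.018 over all tested probes. It was positive for 280 members and negative for 15, where 52.6% of all tested probes were positive. The groups were fully separated, without overlap, at 163 members, where 15.7% of all tested probes were. Treated arrays were the higher ones at 160 of these and the lower ones at 3, where 9.45% and 6.24% of all tested probes were split in these ways. Among the 84 members called higher by the study's threshold the median fold was 1.66, and 13 members had a log2 fold change of at least 1.

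The size of the difference changed gradually with brightness and did not stop at rank 300. The median log2 fold change was 0.41 for the first 10 probes, of which 0 passed the study's threshold, 0.58 for ranks 11 to 100 and 0.47 for ranks 101 to 300. It was 0.24 for the 691 tested probes at ranks 301 to 1000, 0.068 at ranks 1001 to 3000 and -0.013 for dimmer probes. PDGF-BB 2 was the highest of the 6 arrays at 133 of the 265 members with no flagged spot and PDGF-BB 3 at 66, while control 2 was the lowest at 108 and control 1 at 92. The number of members past the study's threshold moved with single arrays: it was 86 in all (4.82%), 45 without PDGF-BB 2 (4.07%), 149 without PDGF-BB 1 (7.07%) and 119 without control 1 (9.4%), with the share of all tested probes in brackets. The median log2 fold change was 0.43, 0.61 and 0.53 in the same fits. The array's brightness and the place on the slide were recorded beside this, and their part in it was not tested. Within the line that holds control 1 and the 3 PDGF-BB arrays the median log2 fold change was 0.44 over 293 members, and 78 were higher and 0 lower by the study's threshold, where 2.84% and 4.52% of all tested probes were. Control 1 is the only control in that line, so the spread in this fit comes from the PDGF-BB arrays alone, and control 1 is assumed to vary as they do.

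**Figure D4:**
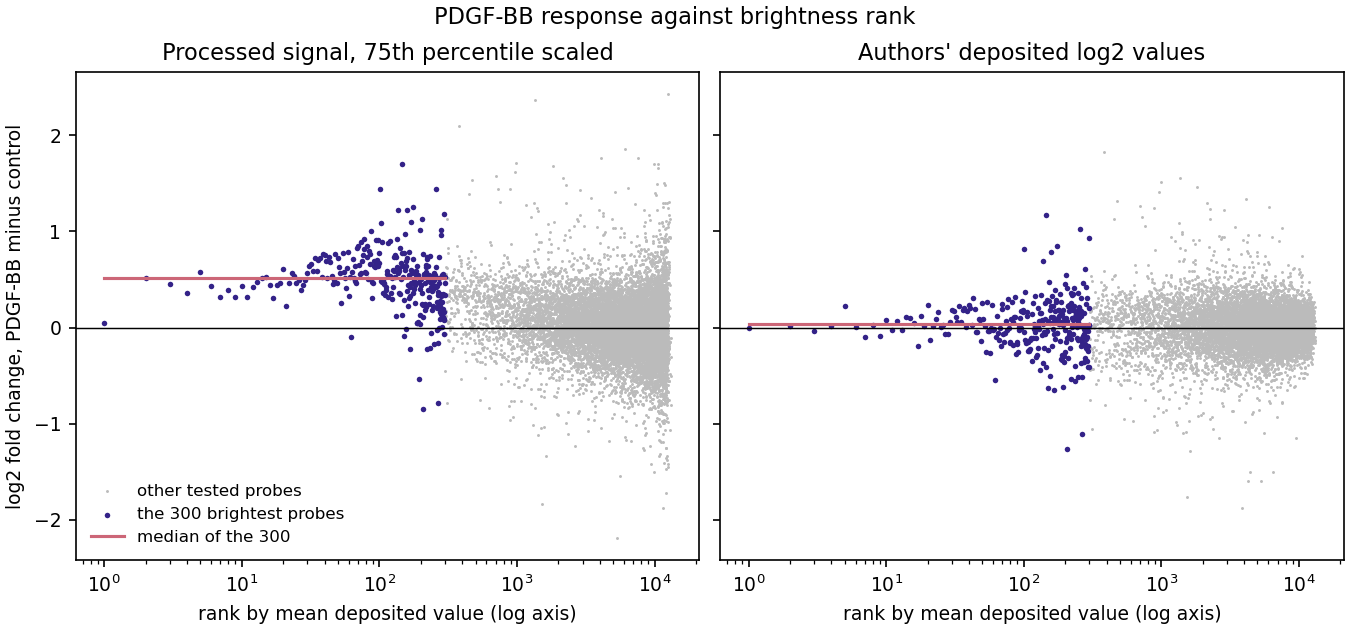
Log2 fold change (PDGF-BB minus control) of each tested circRNA probe against its rank by mean deposited value (logarithmic axis), from the scaled processed signal (left) and from the deposited values (right). Dark points are the 300 brightest probes and the red line is their median, 0.51 on the left and 0.032 on the right, where the medians of successive ranks lie between -0.0045 and 0.044.

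The difference depended on how arrays were brought to one scale. In the authors' deposited values the median log2 fold change of the 300 members was 0.032, and 3 were higher and 4 lower by the study's threshold, where 0.397% and 0.745% of all tested probes were. In these values the highest value was 16.99 and the median of the members 12.58 in every column. Of the first 300 ranks, 47 held values equal within 0.001 in all 6 columns, and the largest difference between columns at one rank was 0.31. Quantile normalization of the processed signal, which gives every array the same set of values by construction, gave 5 higher and 5 lower, where 1.9% and 2.37% of all tested probes were, and a median of 0.021. Scaling to the summed circRNA signal moved the median of all tested probes to -0.38 and that of the members to 0.11, with 7 members higher and 4 lower, where 0.292% and 20.5% of all tested probes were. The members make up 69.1% to 77.3% of that sum, so this scaling largely centres the members by construction. In either direction 7 members passed with deposited values, 10 with quantile normalization and 11 with summed-signal scaling, where 1.14%, 4.27% and 20.8% of all tested probes did. The groups did not overlap at 22, 25 and 42 members in the same order, where 13%, 13.6% and 31.4% of all tested probes were split. The members' median stood 0.49 above that of all tested probes with the 75th percentile and 0.033 above it in the deposited values. With summed-signal scaling the gap was 0.49 again. Summed-signal and 75th percentile scaling each subtract the same value from every probe of an array. Their gaps are therefore nearly equal by construction.

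With normexp background correction in place of the processed signal, 30 members passed the adjusted threshold in limma, 29 higher and 1 lower, out of 54 probes in all (0.439%). The median log2 fold change of the members was then 0.48. This setting changed the background method, started from median rather than processed spot signal and added an offset of 50, and these steps were not separated. In the other fits, listed with the processing, 0 members passed.

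The pair of members with the lowest limma p in each direction, among those past the study's threshold whose groups did not overlap, are given in full. ASCRPR005232 (rank 146) had a processed signal of 2947, 2694 and 5406 in the 3 controls and 18363, 13975 and 5671 after PDGF-BB. PDGF-BB 3 was close to control 3 before scaling and above it after, at 6.31 against 5.60. On the scaled log2 signal the means were 5.13 ± 0.42 in control and 6.83 ± 0.45 in PDGF-BB (SD, n = 3 each). The log2 fold change was 1.70 with an SE of 0.29, or 3.25-fold (adjusted p = 0.142 by limma). In the deposited values it was 1.17.

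ASCRPR002721 (rank 101) read 6838, 5090 and 8783 without treatment and 26447, 23758 and 9679 with it. PDGF-BB 3 again stood nearest to the controls. Its scaled log2 signal was 6.07 ± 0.32 in control and 7.52 ± 0.42 in PDGF-BB (SD, n = 3 each). That is a difference of 1.44 with an SE of 0.26 (adjusted p = 0.166 by limma), and of 0.82 in the deposited values. Both probes passed the adjusted threshold only with normexp (limma adjusted p = 0.00382 for ASCRPR005232 and 0.00608 for ASCRPR002721). Over all 18 alternatives the adjusted p ran from 0.00382 to 0.641 and from 0.00608 to 0.758.

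Against the run of the list, ASCRPR009266 (rank 208) had lower values in treated cells. Its processed signal was 3041, 4666 and 5699 across the controls and 3446, 2081 and 1897 across the treated arrays, where PDGF-BB 1 was above control 1. After scaling the groups did not overlap, at 4.58 ± 0.17 against 5.43 ± 0.34 (SD, n = 3 each), PDGF-BB before control. The difference was -0.85 with an SE of 0.22 (adjusted p = 0.35 by limma). In the deposited values the difference was larger, at -1.27. With normexp its limma adjusted p was 0.0407, and over all alternatives it ran from that value to 0.943. ASCRPR011619 (rank 267) read 2156, 3156 and 3927 without treatment and 2630, 1448 and 1358 with it. The log2 difference was -0.78 with an SE of 0.22 (adjusted p = 0.391 by limma) and -1.11 in the deposited values, and it passed the adjusted threshold in none of the 18 alternatives (limma adjusted p 0.0546 to 0.983). Within the line of arrays that holds both groups, where control 1 is the only control, the log2 fold changes of these 2 probes were -0.47 and -0.44.

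**Figure D5:**
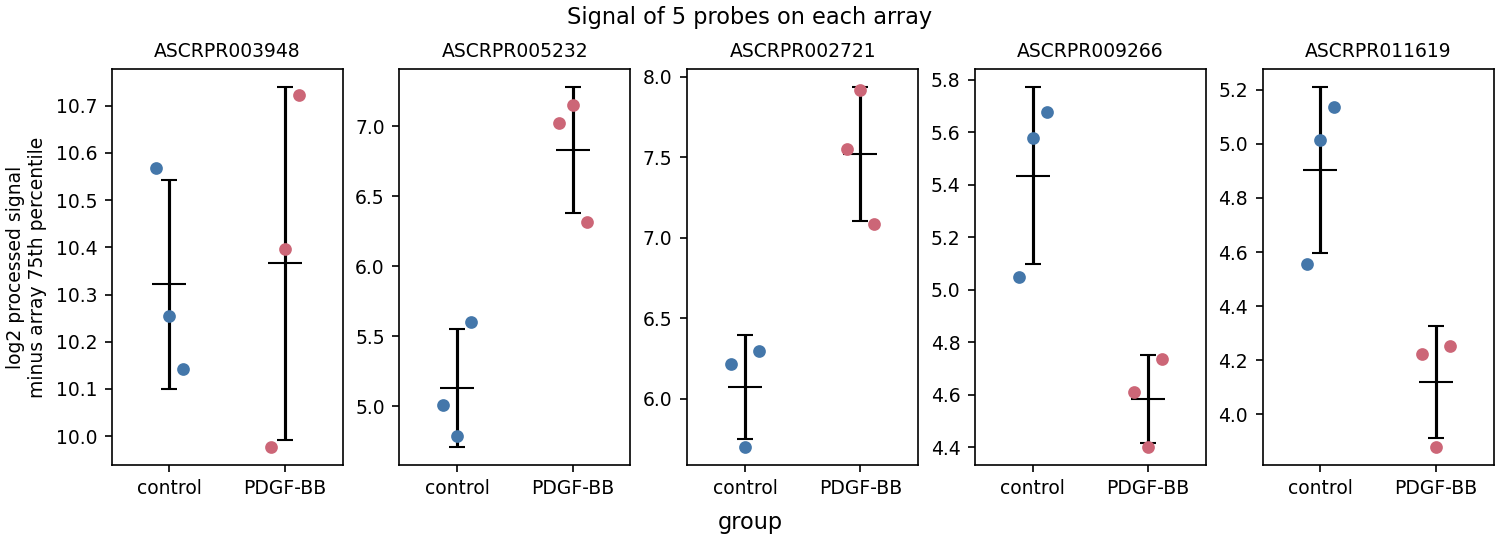
Scaled log2 processed signal of the brightest probe (ASCRPR003948), the 2 members with the lowest p among those higher in PDGF-BB cells (ASCRPR005232, ASCRPR002721) and among those lower (ASCRPR009266, ASCRPR011619). Points are arrays, the bar is the mean and the whiskers are 1 SD (n = 3 each), and each panel has its own axis range; the groups overlap only for ASCRPR003948.

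In the main fit the log2 fold changes of the 5 brightest probes ran from 0.044 to 0.57. None of them passed the adjusted threshold, and no other member did in that fit. ASCRPR003948 differed by 0.044 with an SE of 0.23 (adjusted p = 0.974 by limma), with an SD of 0.22 in control and 0.37 in PDGF-BB (n = 3 each). It was listed at 16.99 on every array in the deposited table, so its difference there is 0. ASCRPR012907, at rank 5, had 0.57 with an SE of 0.20 (adjusted p = 0.503 by limma) and groups that did not overlap, and 0.22 in the deposited values. The other 3 had log2 fold changes of 0.36 to 0.52, which were -0.037 to 0.019 in the deposited values.

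Each circRNA probe has 1 spot on an array, so replicate error comes from the arrays alone. The median SD within groups was 0.27 for the 295 members tested and 0.26 for all tested probes on the scaled log2 signal, and 0.24 against 0.16 in the deposited values. The scanner software's own error estimate had a median of 10% of the signal for members and 10.5% for all circRNA probes. Its highest value for members was 10.0019%, barely above their median, and it is not read here as replicate error. The widest spread was at ASCRPR000039, which had an outlier flag on 3 arrays, leaving 2 controls and 1 PDGF-BB array. At ASCRPR003766, with no flag, the processed signal ran from 606 in control 2 to 3540 in control 1, and from 2913 to 7812 in PDGF-BB arrays.

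Bright spots were flagged as outliers more often than others. A spot was flagged on at least 1 array at 35 members (11.7%), against 1.72% of all circRNA probes, and 5 of the 9 probes flagged on all 6 arrays were members. By array the number of members flagged was 22 in control 2 and 7 to 15 in the other 5. Members were spread evenly over the array, at 73 to 77 in each of 4 blocks of its rows, which is 2.08% to 2.18% of the probes there. Only 13 pairs of members had consecutive probe numbers.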

How the data were processed

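Total RNA was labelled with Cy3 from random primers and hybridised to 6 single-colour circRNA arrays, per the labels' protocols. The authors' scanner output gives spot intensity from Agilent Feature Extraction 11.0.1.1, per the file headers. Background is already subtracted in the processed intensity, arrays are not scaled to each other, and other columns hold flags per spot. The authors deposited log2 values for 14145 probes. Its columns ran with the log2 median spot signal of their own array (r = 0.9986 to 0.9996) and less with the processed signal, at 0.941 to 0.959. They were scaled between arrays and not centred per probe. Whether a background step was applied is not given in the sources used here. The submitters' processing notes also name limma.

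Log2 processed signal minus each array's 75th percentile was tested with limma 3.58.1 (R 4.3.3), leaving out control and outlier-flagged spots and probes well above background on fewer than 3 arrays. The number of arrays limits the precision. Alternatives were normexp (offset 50, from median spot brightness, since no mean is given), quantile, median and summed-signal scaling, a percentile over probes detected on all arrays, deposited values, no filter, flagged spots kept, eBayes trend and robust options, blocks, arrays left out and other lists. The fit was tested on simulated data with planted changes and independent errors per probe, which does not test the choice of scaling.

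Members, lists and tests were chosen with earlier results of these data known. Probes named were the 5 brightest, the 2 per direction with the lowest p that passed the study's threshold with separate groups, the 4 at the limit, the 3 that lost most rank and the 2 with the widest spread. Gene lists by host gene were not run, since no table here names host genes, and a planned permutation test of the share is not given. The main fit did not pair the samples by replicate number, and whether these numbers mark pairs could not be told.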

Additional observations from a re-analysis of the deposited data

How the results depend on the processing

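Over the alternatives, 0 members passed the adjusted threshold except with normexp (30). The 86 members past the study's threshold (29.2% of 295) became 10 with quantile normalization, 7 with the deposited values and 11 with scaling to the summed signal. In lists of 100 and 1000 it was passed by 40 of 100 probes (40%) and 125 of 986 tested (12.7%). Of all tested probes 4.82% passed in that fit. With 1 array left out 45 to 149 members passed, where 4.07% to 9.4% of all tested probes did. The 163 members without overlap (55.3% of 295) became 25, 22 and 42 in these 3 scalings. Lists of 100 and 1000 had 62 of 100 probes (62%) and 383 of 986 tested (38.8%) without overlap, where 15.7% of all tested probes were split. With 1 array left out 167 to 229 members had no overlap, where 20.8% to 33.4% of all tested probes were split. The median log2 fold change of 0.51 became 0.021, 0.032 and 0.11 in these scalings and 0.32 in the list of 1000, and 0.43 to 0.61 with 1 array left out. Quantile normalization gives all arrays one distribution by construction. For the deposited values the cause was not tested. The difference in share of 5.51 points became 0.52 with deposited values and 4.54 to 7.12 with 1 array left out, and 94.2% of members in an array's own list became 93.9% to 94.5%. Summed-signal scaling, lists from 1 group and the share settings by line, by flagged array and without the first 10 probes were chosen after seeing the data.

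ASCRPR003948 changed sign in the line of arrays (-0.20, as a block and within it), with summed-signal scaling (-0.35), without control 3 (-0.046) and without PDGF-BB 3 (-0.13), and ran up to 0.24 without PDGF-BB 1. ASCRPR013743 did so with quantile normalization (-0.023) and deposited values (-0.037), and ASCRPR001235 with quantile normalization (-0.047) and summed-signal scaling (-0.037). Summed-signal scaling lowered the log2 fold change of every probe without a flagged spot by the same amount, so its sign changes follow from the scaling. For the other settings the cause was not tested. The values that changed sign were smaller in size than their SE, except -0.35 for ASCRPR003948 with summed-signal scaling (SE 0.22).

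Deviations of same-numbered arrays from the group means correlated at -0.45, -0.37 and 0.21 over all tested probes. For differently numbered arrays of the 2 groups they correlated at -0.21 to 0.51. With 3 arrays per group the deviations within a group sum to 0 and are tied to each other. These values therefore cannot tell whether the replicate numbers mark pairs. With the replicate block 0 members passed the adjusted threshold, 73 the study's (4.7% of all tested probes) and 161 had no overlap (15.6%), and the median log2 fold change was 0.50. Slide as a block was not run, since the arrays share 1 scan time.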

Other observations

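The arrays also carry 82 probes for linear transcripts, and 2 of them were as bright as the dimmest of the 300 circRNA probes on the scaled log2 signal. Their log2 differences (PDGF-BB minus control) were 0.29 and 0.41, and the groups overlapped at both. The other 80, all dimmer, had a median of 0.089, with 52 above and 28 below 0.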
